A study of Mus musculus with 12 samples.

Results

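The genes described here encode the proteasome and the proteins that build or regulate it, in mouse oocytes with and without RNase H1. They were chosen by symbol, as every gene of the deposited table named Psma to Psmg followed by a number, which gave 50 of the 25162 genes listed. The 50 comprise 14 subunits of the 20S core, 17 subunits of the 19S particle, and 19 other genes, namely the germline and inducible core subunits, the assembly chaperones, the activators and the inhibitor. Psmc3ip, which encodes the meiotic recombination factor HOP2, was matched by its symbol and is no proteasome subunit. Levels are FPKM, fragments per kilobase of transcript and library size, which the authors had adjusted to spike-in RNA. Of the 50 genes, 44 averaged 1 FPKM or more across the columns and were compared. Psma8, Psmb8, Psmb9, Psmb10, Psme1 and Psmg2 were not.

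The control, called WT as in the labels, carried floxed Rnaseh1 (headed Rnaseh1 fl/fl in the table). The knockout, called KO, had lost Rnaseh1 in the oocyte (headed oo-/-). Rnaseh1 encodes RNase H1, a nuclease that removes RNA from its hybrids with DNA, as in R-loops. Each genotype was sampled at NGO, GO and FGO, names that usually stand for oocytes before, during and at the end of growth. For each combination the labels name 2 samples, each a pool of 10 oocytes lysed with 100 pg of ERCC spike-in and made into a Smart-seq2 library of polyadenylated RNA. The sources used here give neither the driver of the deletion nor the age and strain of the mice. The table holds a single column per genotype and stage and does not say whether that is a mean, a pool or 1 of the 2 samples. The differences thus lack a check by replicates, and p-values are not given. A gene is called higher or lower where its log2(FPKM + 1) in 2 columns was at least 1 apart, which is 2-fold in FPKM + 1. In genes of low level the FPKM themselves can differ by more than 2-fold without a call. The number of reads behind a column is unknown.

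The proteasome is the main protease of the cytosol and nucleus and degrades proteins tagged with ubiquitin. Its 20S core is a barrel of stacked rings, with outer rings of alpha subunits that form the gate and inner rings of beta subunits that hold the active sites, while the 19S particle binds ubiquitin chains, removes them and unfolds the substrate with a ring of ATPases. Oocytes rely on ubiquitin-dependent degradation to pass through meiosis and to clear maternal proteins after fertilization.

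A set of 4 promoters is shown first, chosen by the differences between genotypes and the levels described below. At GO, Psma6 had the most negative difference of the alpha ring and Psmb6 that of the beta ring. Psmd2 had the most positive difference of the 44 genes at GO, and Psmd4 had the highest level of all. Each promoter is the 250 bases before a RefSeq start on GRCm38.p6, written 5′ to 3′ on the gene's strand. Psma6 has 2 such windows listed, and that of lower coordinate was used. Capitals mark CCAAT, the box bound by NF-Y, and TGACNNNGC, the core bound by the transcription factors NRF1 and NRF2. Of these 2 factors, NRF1 drives proteasome genes when proteasome activity is low. Both motifs were searched on both strands. Psma6 lies at chr12:55383972-55384221 on the plus strand, Psmb6 at chr11:70525107-70525356 on the plus strand, Psmd2 at chr16:20651402-20651651 on the plus strand and Psmd4 at chr3:95042615-95042864 on the minus strand.
Psma6: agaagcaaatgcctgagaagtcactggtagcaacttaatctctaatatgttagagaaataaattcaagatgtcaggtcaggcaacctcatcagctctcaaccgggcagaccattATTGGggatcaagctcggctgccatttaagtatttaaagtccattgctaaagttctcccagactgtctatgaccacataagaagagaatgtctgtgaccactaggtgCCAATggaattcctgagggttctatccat
Psmb6: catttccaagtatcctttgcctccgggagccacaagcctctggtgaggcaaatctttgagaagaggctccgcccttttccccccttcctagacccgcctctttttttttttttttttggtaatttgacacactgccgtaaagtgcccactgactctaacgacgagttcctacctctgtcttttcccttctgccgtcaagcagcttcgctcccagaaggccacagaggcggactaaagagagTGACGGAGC
Psmd2: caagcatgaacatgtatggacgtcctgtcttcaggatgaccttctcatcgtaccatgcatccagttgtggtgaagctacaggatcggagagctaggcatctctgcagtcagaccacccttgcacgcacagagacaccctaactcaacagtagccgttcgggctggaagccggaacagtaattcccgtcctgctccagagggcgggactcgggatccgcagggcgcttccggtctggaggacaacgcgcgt
Psmd4: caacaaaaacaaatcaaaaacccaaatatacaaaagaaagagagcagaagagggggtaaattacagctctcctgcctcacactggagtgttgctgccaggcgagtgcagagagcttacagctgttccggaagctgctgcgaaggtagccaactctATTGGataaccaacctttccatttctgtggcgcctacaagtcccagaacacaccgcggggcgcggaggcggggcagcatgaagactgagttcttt
Within these 250 bases, Psma6 holds CCAAT at 2 places and Psmb6 holds TGACNNNGC at 1 place directly before the start. Psmd4 holds CCAAT at 1 place there, and Psmd2 holds neither. With the 50 bases after the start included, Psmd4 holds CCAAT at 3 places. Promoters of 300 bases (50 of them after the start) were found for 42 of the 50 genes. TGACNNNGC was present in 6 of the 42, which is 14.3%, against 14.6% of the promoters of all genes compared. The 6 genes were Psmb5, Psmb6, Psmc6, Psmd12, Psmd9 and Psme4. CCAAT was present in 15 of the 42, or 35.7%, against 40.4% of all genes compared. Split by particle, CCAAT was found in 6 of 11 core genes and in 4 of 14 19S genes. Neither motif was thus more frequent in the proteasome promoters than among oocyte genes at large. A match is a description of the letters and not of binding.

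Several properties of the columns touch every value. Rnaseh1 was listed at 8.61, 27.8 and 29.1 FPKM in WT at NGO, GO and FGO, and at 0.931, 3.10 and 8.02 FPKM in KO. All 12 oocyte markers were at or above 15.4 FPKM in every column. Granulosa markers summed to between 2.23 and 9.54 FPKM, except in KO at FGO, where they summed to 33.4 FPKM. Immune markers summed to at most 13.9 FPKM, with Lyz2, Adgre1, Tyrobp and Cd52 listed at 0 in all 6 columns. Most of that sum was H2-Aa, at 0.396, 3.12 and 10.3 FPKM in WT and 0.356, 2.14 and 8.47 FPKM in KO. Cd68 reached 1.95 FPKM and Laptm5 2.07 FPKM. Over all 10110 genes compared, the median difference between KO and WT as deposited amounted to -0.11 (NGO), -0.09 (GO) and 0.72 (FGO). Differences are therefore also given after rescaling, in which columns were scaled to the same median of gene-wise ratios, so that the median gene differs by close to 0. The number of oocytes per sample was set at 10. For other cell types, fewer cells and less RNA per cell cannot be told apart in such pools.

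Proteasome RNA was abundant in every column. The 50 genes summed to 1550, 3613 and 5060 FPKM in WT at NGO, GO and FGO, and to 1240, 2956 and 7196 FPKM in KO. This was 0.989%, 0.940% and 1.10% of all FPKM listed in the WT columns and 0.939%, 0.831% and 0.986% in the KO columns. The share was lower in KO than in WT at each of the 3 stages, while the sum itself was higher in KO at FGO. Levels within the complex were far from equal. Psmd4, the ubiquitin receptor RPN10, was the highest at 224, 563 and 874 FPKM in WT and 182, 426 and 1141 FPKM in KO, while Psma3 stayed under 2 FPKM in all columns.

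**Figure D1:**
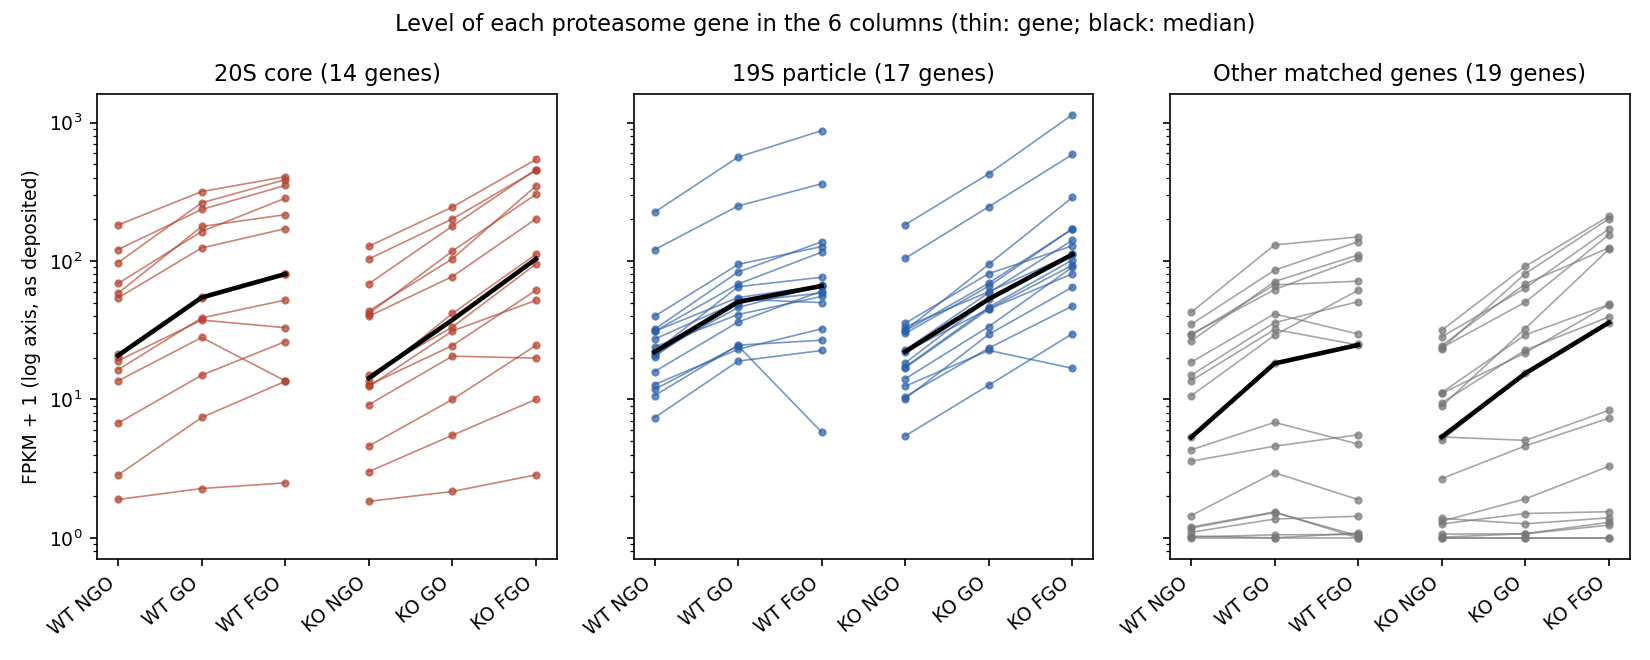
FPKM + 1 on a log axis for each gene (thin lines) in the 6 columns as deposited, with the 20S core, the 19S particle and the other matched genes in separate panels and the median of each panel in black. Nearly all lines are higher at GO than at NGO, while from GO to FGO Psmd13 falls in the 19S panel and Psmb5 in the 20S panel of WT; the higher level of most genes in KO at FGO goes with a rise of the median gene of the whole table.

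The alpha ring of the 20S core was led by Psma7, at 96.5, 263 and 386 FPKM in WT and 67.6, 178 and 457 FPKM in KO. Psma2 was listed at 67.9, 162 and 283 FPKM in WT and 42.6, 103 and 348 FPKM in KO. For Psma4 the values were 53.2, 123 and 170 FPKM in WT and 38.9, 76.3 and 201 FPKM in KO. In all of these, KO was under WT at NGO and GO and above it at FGO. The same order held for Psma6, with 20.3, 53.3 and 79.1 FPKM in WT and 13.95, 32.4 and 94.2 FPKM in KO, for Psma1 and for Psma5. Psma3 stood apart, at 0.894, 1.27 and 1.496 FPKM in WT and 0.836, 1.16 and 1.85 FPKM in KO, although the ring needs each of its subunits. Its coding sequence has near-identical copies elsewhere in the genome, among them the processed pseudogene Gm13835 with 100% identity over 79.7% of a transcript, and no source used here says how reads shared between copies were counted. The level of Psma3 is therefore uncertain. Psma8, the alpha subunit of the spermatoproteasome in male meiosis, was at or under 0.539 FPKM in every column and was listed at 0 in WT at FGO.

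Between genotypes, the alpha ring had a median difference (KO minus WT, log2 scale, as deposited) of -0.51 at NGO, -0.59 at GO and 0.25 at FGO, against -0.11, -0.09 and 0.72 for all genes. After rescaling the medians were -0.33, -0.51 and -0.49. All 7 genes were below 0 after rescaling at GO and at FGO, and 6 of 7 at NGO, with Psma3 at 0.05. The most negative differences, as deposited, were -0.66 for Psma2 at NGO and -0.70 for Psma6 and -0.69 for Psma4 at GO. Psma4 has a near-identical processed pseudogene (96.8% identity over 66.9% of a transcript), so its level is uncertain. The same holds for Psma5 and, in the beta ring, for Psmb3, which also have near-identical pseudogenes. None of the 7 reached the 2-fold rule at any stage on either scale. Over all genes, 0.356% at NGO and 2.98% at GO did so in either direction as deposited and 25.8% were higher at FGO, and after rescaling 0.485%, 2.32% and 2.62% did.

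The beta ring carries the active sites, in Psmb6 (caspase-like), Psmb7 (trypsin-like) and Psmb5 (chymotrypsin-like). Psmb2, a structural subunit, was the highest at 181, 317 and 406 FPKM in WT and 127, 245 and 541 FPKM in KO. Among the catalytic subunits Psmb7 was at 120, 235 and 350 FPKM in WT and 102, 200 and 450 FPKM in KO. Psmb6 was at 15.4, 37.8 and 51.3 FPKM in WT and 11.7, 23.5 and 60.5 FPKM in KO. The third, Psmb5, had a different course, with 12.6, 27.0 and 12.6 FPKM in WT and 8.17, 19.6 and 18.9 FPKM in KO. Psmb5 thus fell from GO to FGO in WT, by 1.04 on the log2 scale, while Psmb6 and Psmb7 were higher at FGO than at GO in both genotypes. Psmb5 also has a near-identical processed pseudogene, so its level carries the same doubt as that of Psma3.

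Psmb4, on chromosome 3 from 94884093 to 94886961 in mm10, had the lowest mean of the constitutive beta subunits. It was listed at 1.85, 6.41 and 12.5 FPKM in WT and at 2.01, 4.52 and 9.01 FPKM in KO. At FGO Psmb4 was lower in KO than in WT also as deposited, with a difference of -0.43, whereas the median gene was higher by 0.72. After rescaling the difference was -1.08, which made Psmb4 the 1 gene of the 44 past the 2-fold rule on that scale. Psmb1 was the other core gene that was lower in KO at FGO as deposited. Its values were 5.74, 13.97 and 25.2 FPKM in WT and 3.61, 8.99 and 23.6 FPKM in KO, a difference of -0.09 at FGO as deposited and -0.83 after rescaling. Over the 7 constitutive beta genes, the median difference after rescaling amounted to -0.33 (NGO), -0.35 (GO) and -0.43 (FGO). All 7 were below 0 at GO and FGO after rescaling, and 6 of 7 at NGO, where Psmb4 was at 0.24.

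The inducible beta subunits, which replace the constitutive ones in the immunoproteasome, were close to absent from the table. Psmb8 was listed at 0 in all 6 columns, Psmb9 at or under 0.0581 FPKM and Psmb10 at or under 0.433 FPKM. Tap1, the peptide transporter gene beside Psmb9, was at or under 0.0313 FPKM. Psmb11, the subunit of the thymus, was listed at 0.447, 1.96 and 0.889 FPKM in WT and at 0.319, 0.911 and 2.29 FPKM in KO, near the floor of the genes compared. The core in these oocytes was accordingly represented by the constitutive subunits.

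The 6 ATPases of the 19S base, Psmc1 to Psmc6, were more even in level than the core genes. They ranged from 14.9 to 38.9 FPKM in WT at NGO, from 35.2 to 93.6 FPKM at GO and from 54.5 to 137 FPKM at FGO. Psmc2 had the lowest mean, with 14.9, 35.2 and 59.7 FPKM in WT and 13.1, 32.6 and 89.4 FPKM in KO. Psmc1 had the highest, with 31.1, 82.3 and 137 FPKM in WT and 30.6, 93.9 and 287 FPKM in KO. Psmc1 was 1 of the 2 genes called higher in KO at FGO as deposited, with a difference of 1.07, but after rescaling the difference was 0.28. Psmc1 has a near-identical processed pseudogene (95.6% identity over 82.0% of the transcript), so its level is uncertain, and without genes that have such copies 1 gene is called at FGO. The ATPases had median differences after rescaling of 0.03 at NGO, 0.11 at GO and -0.12 at FGO.

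The other subunits of the base are the scaffolds Psmd1 and Psmd2 and the receptor Psmd4. Psmd2 was listed at 30.0, 53.5 and 65.5 FPKM in WT and at 34.5, 80.3 and 128 FPKM in KO. It was higher in KO at all 3 stages as deposited, with differences of 0.19, 0.58 and 0.95, of which that at GO was the most positive of the 44 genes. Psmd1 was at 11.8, 22.0 and 31.4 FPKM in WT and 9.13, 28.6 and 63.7 FPKM in KO, with differences of -0.34, 0.36 and 0.999 as deposited, the last just under the 2-fold rule. Psmd4 differed from both scaffolds, with differences of -0.30, -0.40 and 0.38. After rescaling, Psmd2 remained above 0 at each stage (0.38, 0.65 and 0.17) and Psmd4 below 0 (-0.12, -0.32 and -0.41). Psmd2 has a transcribed processed pseudogene, Gm5422, with 96.3% identity, so its level may include reads of that copy.

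In the lid, which holds the deubiquitinase Psmd14, the highest level was that of Psmd8, at 120, 249 and 361 FPKM in WT and 104, 246 and 588 FPKM in KO. Psmd3 was at 26.3, 49.7 and 57.7 FPKM in WT and 32.3, 59.0 and 112 FPKM in KO. Like Psmd2, it was higher in KO at all 3 stages as deposited, by 0.29, 0.24 and 0.94, and it stayed above 0 after rescaling at 0.47, 0.32 and 0.16. Psmd14 was at 21.0, 64.2 and 75.4 FPKM in WT and 21.8, 58.1 and 140 FPKM in KO. After rescaling its differences of 0.23, -0.07 and 0.11 had no single direction. The 8 lid genes together had rescaled medians of 0.06, -0.02 and -0.02.

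Psmd13, another lid subunit (RPN9), lies on chromosome 7 from 140881968 to 140898643 in mm10 and had the largest difference between genotypes of all 44 genes as deposited. Its level was 10.8, 23.4 and 4.80 FPKM in WT and 11.5, 21.6 and 15.8 FPKM in KO. The genotypes were within 0.11 of each other on the log2 scale at NGO and GO and differed by 1.53 at FGO as deposited, where KO was called higher, and by 0.77 after rescaling, which is under the 2-fold rule. In WT Psmd13 fell from GO to FGO by 2.07 on the log2 scale. In KO the same step was -0.43 as deposited and -1.22 after rescaling. Psmd13 shares 342 exonic bases with Sirt3 on the opposite strand and the library does not mark strand, so reads there cannot be assigned. Sirt3 was at 1.98 FPKM in WT and 5.18 FPKM in KO at FGO, also higher in KO. Whether this overlap had a part in the result was not tested.

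Across the whole set, differences between genotypes at a given stage were mostly smaller than 2-fold. At NGO none of the 44 genes reached 2-fold in either direction as deposited, against 0.356% of all genes compared, and none after rescaling, against 0.485%. At GO again none did, against 2.98% of all genes as deposited and 2.32% after rescaling. At FGO, 2 genes were called higher in KO as deposited, Psmd13 and Psmc1, where 25.8% of all genes were. After rescaling 1 gene was called at FGO, Psmb4, against 2.62% of all genes in either direction. The median difference over the 44 amounted to -0.30 (NGO), -0.28 (GO) and 0.57 (FGO) as deposited, and -0.13, -0.21 and -0.20 after rescaling. After rescaling, 32 of 44 genes were below 0 at NGO, 30 at GO and 33 at FGO. With no replicate, the spread to set these shifts against is unknown. The summed granulosa markers also differed at FGO, 33.4 FPKM in KO against 9.54 in WT, beside 19213 and 9933 FPKM of oocyte markers, and their part in the values at FGO was not tested.

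The 20S core and the 19S particle differed in where their genes lay within that range. This split by particle was looked at after the values of single genes were seen. As deposited, the core had median differences of -0.51, -0.50 and 0.27 at NGO, GO and FGO, and the 19S particle -0.17, -0.05 and 0.75, so that the core was lower by 0.33, 0.45 and 0.48. Of the 14 core genes, 12 lay below the 19S median at NGO and 14 at both GO and FGO. Below the median of all genes compared, where by definition 5055 of 10110 genes lie, were 12, 13 and 14 core genes. The 19S genes below that median numbered 10, 7 and 8. Of the 17 19S genes, 1 lay below the core median at GO, Psmd11, and 0 at NGO and at FGO. The symbol rule leaves out the 19S subunits Sem1 and Adrm1. As deposited, Sem1 was at -0.43, -0.77 and -0.22, below the core median at GO and FGO. Adrm1 was at -0.12, 0.18 and 0.76, above the core median at each stage. The ranges of the particles overlapped at each stage. Psmd11, a lid subunit with a near-identical copy, and Psmd4 had the lowest differences of the 17 19S genes at FGO as deposited. After rescaling the core medians were -0.33, -0.43 and -0.46, and the 19S medians were within 0.03 of 0.

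A ratio within 1 column does not depend on how columns are scaled. The geometric mean level of the 14 core genes was 0.901, 0.924 and 1.002 times that of the 17 19S genes in WT at NGO, GO and FGO. In KO the ratio was 0.724, 0.671 and 0.707. The KO ratio was therefore 0.803, 0.727 and 0.706 times the WT ratio. Taken from sums of FPKM, in which Psmd4 and Psmb2 weigh most, the same comparison gave 0.814, 0.784 and 0.825. The core was lower relative to these 17 19S genes in all 3 KO columns by either measure. Such a ratio does not tell which of the 2 particles differed. Each ratio rests on single columns, so its spread between replicates is unknown.

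**Figure D2:**
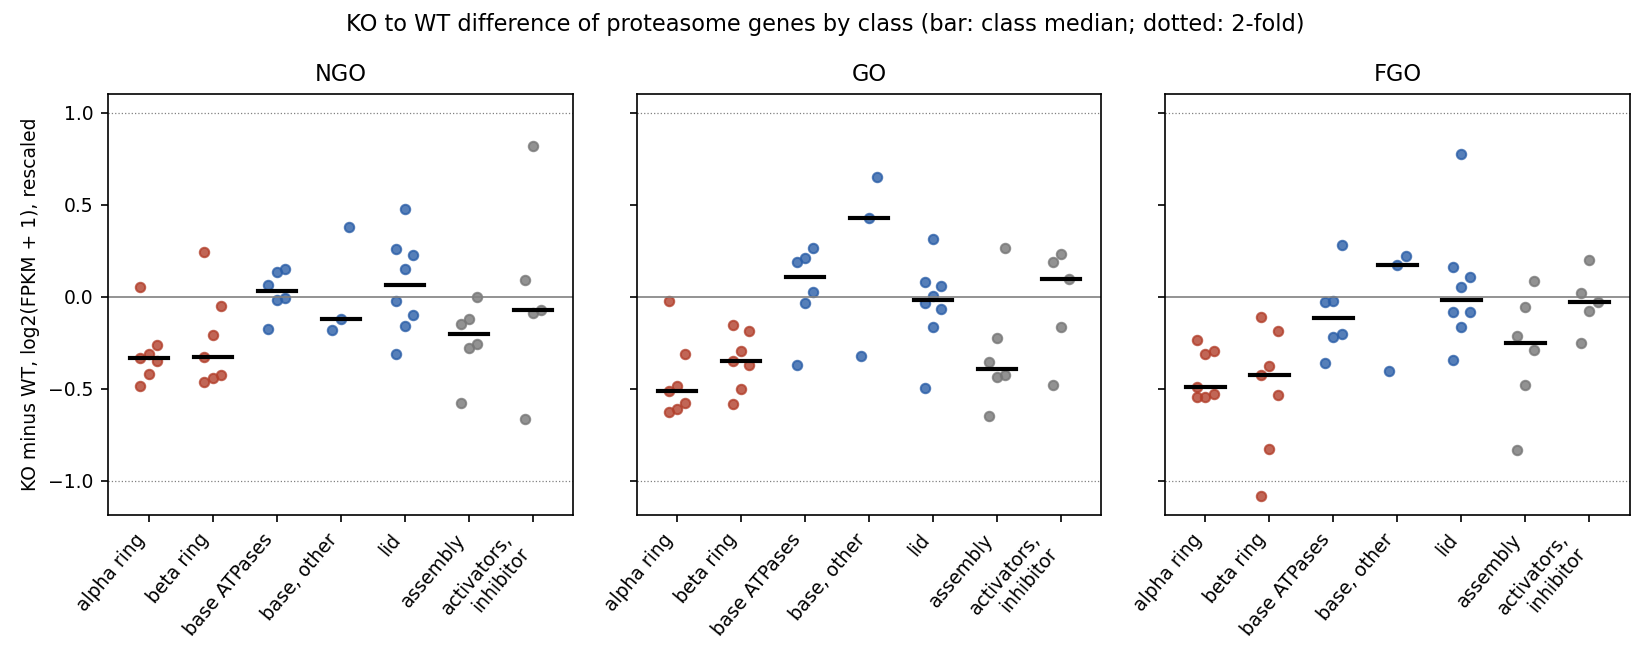
Difference between KO and WT of the 42 compared genes in 7 classes at each stage, in log2(FPKM + 1) after rescaling, with class medians as black bars and the 2-fold rule as dotted lines. Alpha and beta ring genes sit mostly between -0.6 and 0, base and lid genes scatter around 0, and Psmb4 is below -1 at FGO; as deposited, most of the values at FGO are above 0.

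Transcript length differed between the particles too. The median length (longest principal transcript of GENCODE M21) was 1162.5 nt for core genes, 1636 nt for 19S genes and 2839 nt for all genes compared. Which transcript of a gene the oocytes held was not examined, so a gene may be shorter in them than listed. Over the 44 genes, length and the rescaled difference had Spearman rho of 0.43, 0.49 and 0.47 and Pearson r (log2 of length) of 0.29, 0.46 and 0.42 at NGO, GO and FGO. These describe genes of the same pair of columns, which are not independent of each other. Over all genes with a length, rho was 0.22, 0.13 and 0.064. Within the core alone, rho was 0.0066, -0.024 and -0.18 over 14 genes. Within the 19S particle it was -0.0025, 0.47 and 0.48 over 17 genes.

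Among genes of 1000 to 1500 nt, the 6 core genes had rescaled medians of -0.29, -0.43 and -0.48, the 4 19S genes 0.01, -0.16 and -0.29, and the 1041 other genes -0.13, -0.19 and -0.11. In that range the core was below both. Among genes of up to 1000 nt, the 5 core genes had rescaled medians of -0.33, -0.37 and -0.38, and the 680 other genes -0.22, -0.40 and -0.36. There the core genes lay with other short genes at GO and FGO. No 19S gene is that short. Of the core genes listed as longer, Psmb1 at 1758 nt and Psma2 at 2911 nt were at -0.50 and -0.58 at GO after rescaling. There the other genes of 1500 to 2500 nt had a median of 0.05 and those over 2500 nt a median of 0.02. Psma3, listed at 2846 nt, was at -0.03. Since these are lengths of the longest principal transcript, the length range of these genes in oocytes is uncertain. How far length and particle each account for the difference was not tested.

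**Figure D3:**
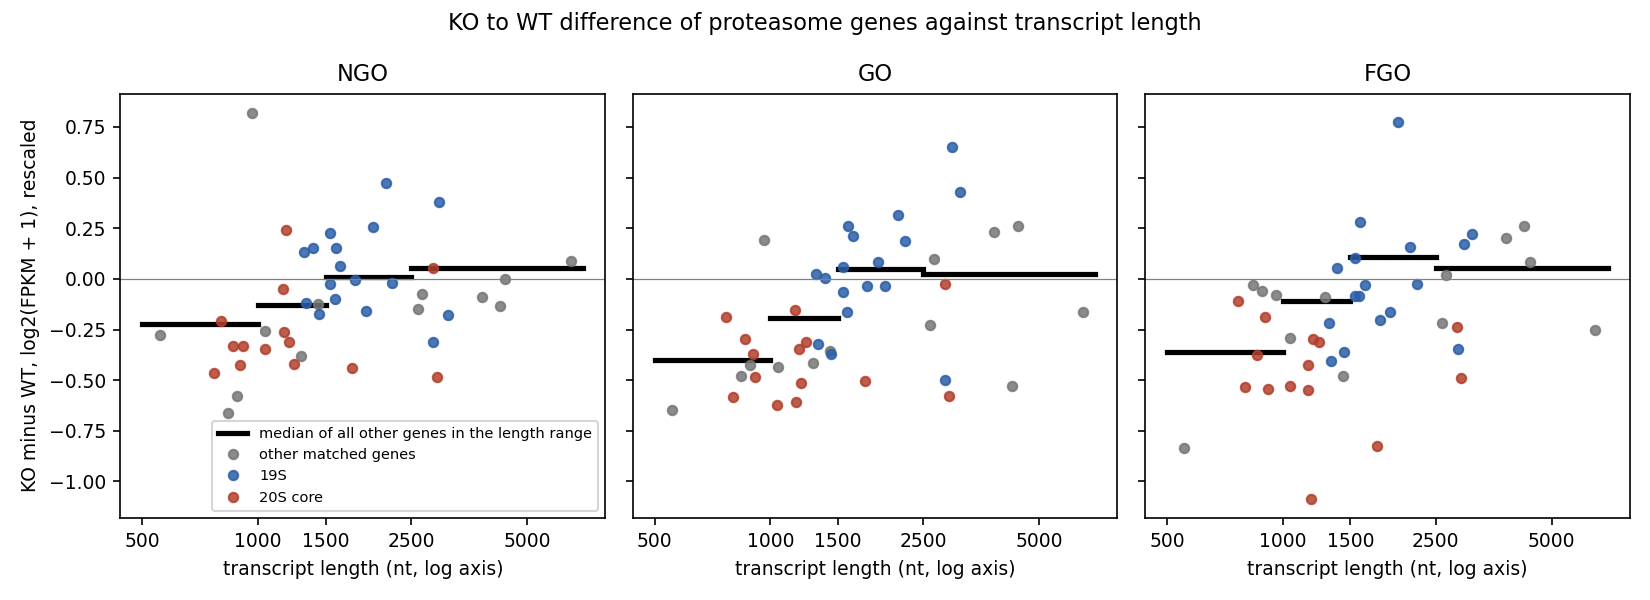
Difference between KO and WT after rescaling, in log2(FPKM + 1), against transcript length in nt on a log axis, for core genes (red), 19S genes (blue) and other matched genes (grey), with the median of all other genes in each length range as black bars. The medians of the other genes up to 1000 nt and of those from 1000 to 1500 nt lie below 0 at all 3 stages, and core genes of more than 1000 nt mostly lie below the bars; as deposited, most values at FGO are above 0.

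During growth, proteasome RNA followed the columns as a whole from NGO to GO and exceeded them from GO to FGO. From NGO to GO in WT, 34 of 44 genes were called higher as deposited, against 54.8% of all genes, and the median step was 1.21 against 1.06. Relative to the median gene the step was close to 0, with a rescaled median of -0.06 and none of the 44 was called in either direction, against 9.34% of all genes. In KO, 32 of 44 were called higher as deposited, against 57.6%, with a median of 1.21. After rescaling the KO median was -0.16 and 1 gene was called, Psme2 as lower, against 7.96%. The largest WT steps as deposited were 1.78 for Psme4 and 1.62 for Psmg1, and the smallest were 0.26 for Psma3 and 0.36 for Psme2.

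From GO to FGO in WT the median step of the 44 genes was 0.43 as deposited and 0.41 after rescaling, against 0.08 and 0.06 for all genes, and 36 of 44 were above 0. Of these genes 3 were called in WT, against 15.7% of all genes as deposited, namely Psmf1 as higher and Psmd13 and Psmb5 as lower. In KO 30 of 44 were called higher as deposited, against 39% of all genes, with a median of 1.18 against 0.84. After rescaling the KO median was 0.31 against 0.04 for all genes, and 2 were called, Psmf1 as higher and Psmd13 as lower, against 10.1%. The alpha ring and the ATPases were uniform in this step, with all 7 and all 6 genes above 0 in WT and medians of 0.55 and 0.58 as deposited. As deposited, the WT and KO steps into FGO use no common column. Each rests on a single pair of columns of its own genotype, so one is no replicate of the other. The rescaled steps share a reference made from all 6 columns.

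**Figure D4:**
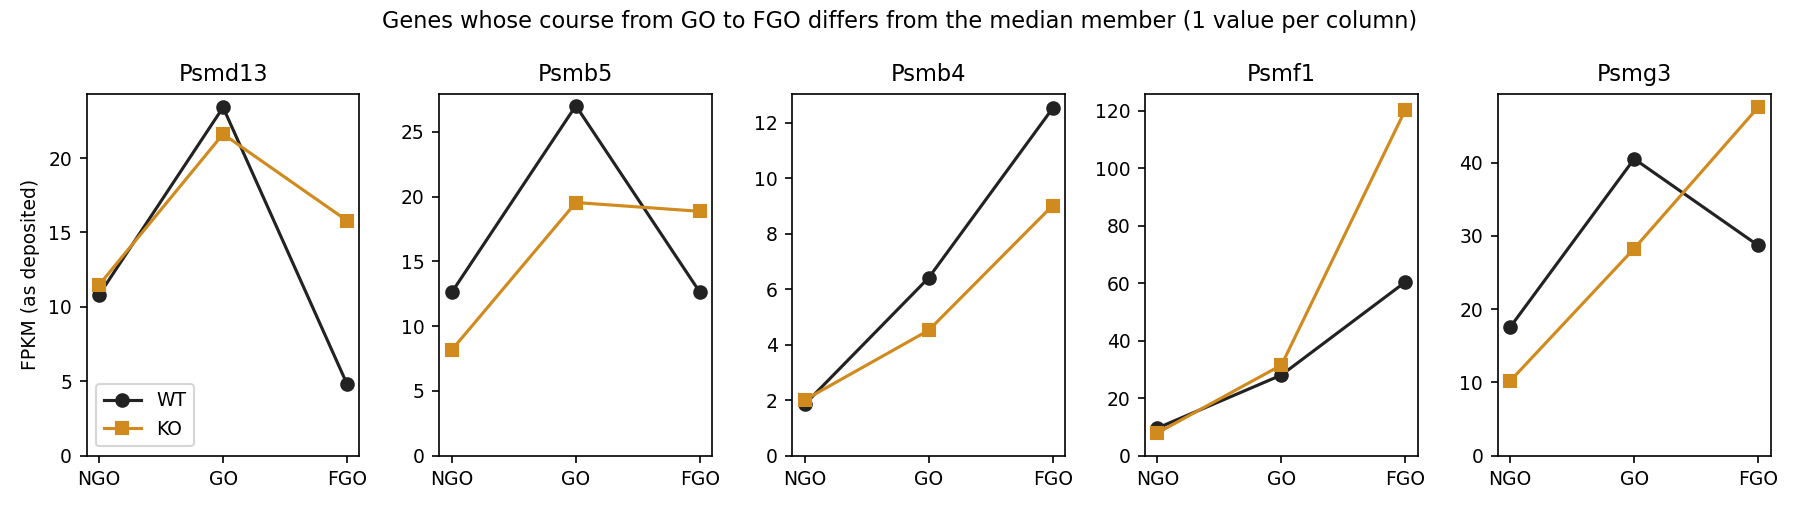
FPKM as deposited at NGO, GO and FGO in WT (black circles) and KO (orange squares) for 5 genes, with 1 value per column and hence no error bar. Psmd13, Psmb5 and Psmg3 peak at GO in WT, Psmb4 and Psmf1 are higher at each later stage in both genotypes, and all but Psmb4 are higher in KO than in WT at FGO, a direction that the median gene of the whole table shares.

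Assembly chaperones guide the building of the core (Psmg1 to Psmg4) and of the base (Psmd5, Psmd9 and Psmd10) and are absent from the finished particle. Psmg1 was the highest at 41.5, 130 and 148 FPKM in WT and 30.6, 90.6 and 210 FPKM in KO. Its partner Psmg2 was at or under 0.545 FPKM in all columns, a contrast in level like that of Psma3 with the rest of its ring. Psmg3 was at 17.5, 40.5 and 28.7 FPKM in WT and 10.2, 28.3 and 47.6 FPKM in KO, and its difference at NGO of -0.73 as deposited was the most negative of the 44. Psmg4, which pairs with Psmg3, was at 13.9, 34.9 and 49.9 FPKM in WT and 10.1, 20.7 and 47.3 FPKM in KO. Psmg4 was the most negative at GO, at -0.73 as deposited, and after rescaling it stood at -0.28, -0.65 and -0.84. The 6 chaperones compared had rescaled medians of -0.20, -0.39 and -0.25. Psmd5, a chaperone of the base, was the exception at GO and FGO, at 0.26 and 0.08 after rescaling.

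Activators open the gate of the core in place of the 19S particle. The nuclear activator Psme3 (PA28 gamma) was the highest, at 28.1, 66.3 and 70.5 FPKM in WT and 23.5, 67.4 and 124 FPKM in KO. Psme4 (PA200), which binds the core in the nucleus, was at 4.32, 17.2 and 24.3 FPKM in WT and 4.07, 14.4 and 34.9 FPKM in KO. The subunits of the interferon-inducible PA28 were low. Psme1 was at or under 0.294 FPKM in every column. Psme2 was listed at 2.58, 3.59 and 4.55 FPKM in WT and 4.36, 4.06 and 7.34 FPKM in KO, and its copy Psme2b at 3.32, 5.83 and 3.76 FPKM in WT and 1.68, 3.61 and 6.32 FPKM in KO. At NGO these 2 genes had differences of opposite sign, 0.58 for Psme2 and -0.69 for Psme2b as deposited. They are 99.3% identical over 90.1% of the Psme2 transcript, so the split of reads between them is uncertain.

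Psmf1 encodes PI31, an inhibitor of the core in the test tube and an adaptor for the transport of proteasomes in neurons. Its level was 9.60, 28.1 and 60.5 FPKM in WT and 7.92, 31.5 and 120 FPKM in KO. It rose at each stage in both genotypes on the deposited scale, and from GO to FGO it rose by 1.08 in WT and 1.90 in KO. After rescaling these last steps were 1.05 and 1.02, so that Psmf1 was the gene of the set that gained most on the median gene in both genotypes. Between genotypes it differed by -0.25, 0.16 and 0.98 as deposited. Psmc3ip, the recombination factor, was at 12.6, 31.0 and 23.8 FPKM in WT and 8.44, 21.8 and 38.5 FPKM in KO.

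Genes that work with the proteasome but carry other names were taken from a fixed list of 35, of which 33 could be compared. As deposited, none of the 33 was called between genotypes at NGO, where 0.356% of all genes were in either direction, and 1 was called at GO, as higher, against 2.98%. At FGO 10 were called higher and none lower as deposited, beside the 25.8% of all genes called higher there. After rescaling none was called at NGO (0.485% of all genes), 1 at GO (2.32%) and 1 at FGO (2.62%), in both cases Ddi2 as higher. Ddi2, the protease that activates NRF1, was listed at 4.34, 6.40 and 9.15 FPKM in WT and 3.66, 29.7 and 41.5 FPKM in KO. Nfe2l1, the gene of NRF1, was at 23.5, 52.3 and 50.3 FPKM in WT and 25.5, 49.96 and 73.2 FPKM in KO. The 6 genes with TGACNNNGC in the promoter were all below 0 at NGO and above 0 at FGO as deposited, and all below 0 at FGO after rescaling, as were most of the 44 genes. At GO their signs were mixed, with Psmb6 at -0.58 and Psmc6 at 0.19 after rescaling. Nfe2l2, the gene of NRF2, was at 2.32, 8.14 and 7.43 FPKM in WT and 2.14, 6.96 and 25.9 FPKM in KO, called higher at FGO as deposited (1.68) but not after rescaling (0.90).

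Partners that build or join the particles included Pomp, Adrm1 and Sem1. Pomp, the chaperone that matures the core, was at 45.3, 92.4 and 108 FPKM in WT and 32.1, 60.2 and 138 FPKM in KO, with rescaled differences of -0.31, -0.53 and -0.44. Adrm1, the ubiquitin receptor RPN13 of the 19S particle, was at 108, 200.3 and 254 FPKM in WT and 99.3, 227 and 430.2 FPKM in KO, with rescaled differences of 0.06, 0.25 and -0.03. Sem1, a small lid subunit, did not follow the lid. It was at 49.9, 125 and 186 FPKM in WT and 36.8, 72.9 and 160 FPKM in KO, with rescaled differences of -0.26, -0.69 and -0.998, the last just under the 2-fold rule.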

How the data were processed

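Polyadenylated RNA of 12 samples, 2 per genotype and stage, was measured, per the labels. The submitters' processing notes name the trimmer Trim Galore 0.6.7, the aligner HISAT2 2.2.1 and, for transcripts, Cufflinks 2.2.1, with the build mm10. The authors deposited FPKM adjusted to ERCC spike-in RNA; no source used here gives the formula, the annotation or the treatment of reads with several matches. Of 25912 lines, 2 with spreadsheet error marks were left out, and for the 333 symbols on more than 1 line, 0 of them proteasome genes, the line of highest mean was used.

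Differences of log2(FPKM + 1) were computed between single columns over the 10110 genes that averaged 1 FPKM or more. With 1 column per group, the limma fit planned for replicates could not be made. Rescaling took the geometric mean of the 6 columns as reference and divided each column by the median of its ratios to it. These divisors at NGO, GO and FGO were 0.514, 1.29 and 1.31 in WT, and 0.453, 1.22 and 2.26 in KO. Lengths and positions came from GENCODE M21 and promoters from RefSeq. Copies were sought with blastn 2.17.0 at 95% identity over at least 50% of a transcript, and 10 of the proteasome genes had one. Python 3.11.15, numpy 2.4.6, pandas 2.3.3 and matplotlib 3.10.9 were used, and the steps were tested on simulated data.

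The members, the lists and the naming rule were chosen with earlier results of these data known. The rule names genes past 2-fold after rescaling, the 3 largest differences in each direction per stage, the 2 largest steps in each direction in WT, the inducible, germline, activator and non-subunit genes, and the highest and lowest of each class of at least 6. The remaining genes are named for their role or after their values were seen. Antigen presentation genes, pathway partners and markers of oocytes, granulosa and immune cells were the lists. Alternatives were 2 other scalings, another pseudocount, other filters and smaller sets of members.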

Additional observations from a re-analysis of the deposited data

Results flagged for a closer look

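Psmb11, the beta subunit of the thymus, was picked out because its differences had opposite signs in comparisons of the same kind on both scales, with at least 0.25 on each side as deposited and at least 0.5 on 1 side on both scales. Other genes, such as Psmd1, Psmb4 and Psmf1, also changed sign between stages without meeting all of these limits. Its difference between KO and WT was -0.63 at GO and 0.80 at FGO on the log2 scale as deposited. Seen along growth, its step from GO to FGO was -0.65 in WT and 0.78 in KO. On the log2(FPKM + 1) scale none of these values reached 2-fold, although the FPKM themselves differed more, with KO to WT ratios of 0.466 at GO and 2.57 at FGO. The levels lay between 0.319 and 2.29 FPKM, and the difference between the stages or genotypes was not tested, since each value comes from 1 column.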

How the results depend on the processing

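Scaling moved the results most. With columns at equal medians of their ratios, the median difference of KO against WT was -0.13 at NGO. At FGO it changed sign, from 0.57 as deposited to -0.20, with 1 gene past 2-fold. The median step from NGO to GO changed sign to -0.059 in WT (0 genes past 2-fold) and -0.16 in KO (1 gene), and that from GO to FGO in KO was 0.31 (2 genes). With equal column totals, the KO against WT medians were -0.072, -0.17 and -0.076 at NGO, GO and FGO, with 0 genes past 2-fold at FGO. The direction of the FGO median was thus opposite to that as deposited under both other scalings. The NGO to GO steps changed sign to -0.025 in WT (0 genes) and -0.16 in KO (1 gene), and the GO to FGO steps were 0.17 in WT and 0.16 in KO (2 genes). With a pseudocount of 0.1, 1 gene passed 2-fold between genotypes at GO and 4 at FGO. Without genes that have a near-identical copy, an alternative chosen after the data were seen, 1 did at FGO. Leaving out Psmc3ip, also chosen afterwards, no filter, a mean of at least 5 FPKM, summed lines of a symbol and only 20S and 19S subunits kept each median direction and each count within 1.5 times. The 20S core was below the 19S particle at all 3 stages under each of these settings.

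No paired analysis was possible because the columns carry no replicate numbers. Leaving out a replicate and the replicate block were not run for the same reason. Read depth is unknown, so counting error is unknown too, and genes near 1 FPKM such as Psma3 and Psmb11 are the least certain.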

Other observations

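Genes of antigen presentation, the process that the inducible proteasome serves, were mostly low in these oocytes. Of 10 listed, 4 were compared, namely Tapbp, B2m, H2-K1 and Irf1. H2-K1, a class I molecule, was listed at 45.9, 35.9 and 12.02 FPKM in WT at NGO, GO and FGO and at 47.5, 46.5 and 21.0 FPKM in KO. It fell from GO to FGO by 1.50 on the log2 scale in WT and by 1.11 in KO, in the same step in which most proteasome genes were higher. Irf1, an interferon-responsive factor, was at 43.0, 108 and 121 FPKM in WT and 39.9, 135 and 241 FPKM in KO, while Nlrc5, the activator of class I genes, was at or under 0.0257 FPKM.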
